A study of Homo sapiens with 4 samples.

Results

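The 10 genes described here encode the human proteins with an actin-depolymerizing factor (ADF) homology domain: COTL1, CFL1, CFL2, DSTN, TWF1, TWF2, DBN1, DBNL, GMFB and GMFG. They were listed by their domain and matched by platform annotation to 10 of the 18417 genes measured in HuH7, a human hepatocellular carcinoma cell line. All 10 had at least 1 probe that lists that gene alone. Measured values entered the choice of probe and of genes. The probe of TWF1 was chosen by its mean over the 4 arrays, since TWF1 had 2 such probes, and the family was selected with the fall of COTL1 in these arrays already known. The values of COTL1 are therefore a description, and its p-value is not independent support. The other members and the lists of other actin genes were also chosen with earlier results of these data known. Their counts are likewise a description.

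The tested cells stably expressed shRNA against MKL1 and MKL2 (MKL1/2 shRNA, 2 arrays), and the control cells stably expressed a control shRNA (2 arrays). In both groups the shRNA was delivered by lentivirus from the pLKO.1 vector, cells were selected with puromycin for 7 days, and cultures had 10% serum and fewer than 10 passages. The labels call the arrays of a group biological replicates and give no sign of whether infections were separate or clones were picked. The p-values below measure the spread between these 4 arrays. The deposited values are log2 signals of 33297 probes, with array medians from 5.68 to 5.73. Over genes, the log2 difference had an SD of 0.265 between the MKL1/2 shRNA arrays and 0.154 between the control arrays. Against control replicates 1 and 2 the SD was 0.31 and 0.287 for MKL1/2 shRNA replicate 1, and 0.276 and 0.261 for replicate 2. MKL1/2 shRNA replicate 2 was thus about as far from the control arrays as from the other MKL1/2 shRNA array. The probe for MKL1 (now MRTFA), which also lists RBM15, read 6.81 and 6.91 in MKL1/2 shRNA cells and 7.77 and 7.80 in control cells (limma adjusted p = 0.0404). MKL2 (now MRTFB) read 6.84 and 7.11 in MKL1/2 shRNA cells and 7.20 and 7.22 in control cells, and its difference did not pass the test (limma adjusted p = 0.448). SRF, the gene of serum response factor, read 9.37 and 9.52 in MKL1/2 shRNA cells and 9.80 and 9.97 in control cells. Its difference of -0.44 did not pass either (limma adjusted p = 0.188). Of 25 measured marker genes of hepatocytes, leukocytes, fibroblasts and endothelium, 0 passed in limma. An unadjusted p under 0.05 was reached by 2 of them, AFP and PTPRC, against 14.3% of all genes. The hepatocyte genes ALB and AFP read between 11.86 and 12.43 on every array, and the leukocyte gene PTPRC between 2.78 and 3.22. Some markers of other cell types read high, with LYZ (leukocytes) between 12.02 and 12.25 and CD68 (leukocytes) between 8.46 and 9.42. The remaining leukocyte markers, CD3E, CD14, HCLS1 and CORO1A, lay between 4.45 for CD3E and 5.88 for CORO1A. LUM (fibroblasts) read 7.13 and 8.60 in MKL1/2 shRNA cells and 8.05 and 8.01 in control cells. The other fibroblast markers lay between 2.66 for DCN and 7.00 for COL1A1, and the endothelial markers between 4.12 for KDR and 6.92 for PECAM1.

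Proteins with an ADF-homology domain bind actin monomers, actin filaments or actin-related proteins, and they set how fast filaments are taken apart and branched. Cofilins and ADF sever and depolymerize filaments, twinfilins act on monomers and filament ends, drebrins bind along filaments, and glia maturation factors act on the Arp2/3 complex at branches. MKL1 and MKL2 are held inactive by actin monomers and, once released, activate genes through serum response factor (SRF), so the actin pool that ADF-homology proteins turn over is also the pool that MKL1 and MKL2 sense. The series was made to find genes that need MKL1 and MKL2.

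COTL1 fell in MKL1/2 shRNA cells, and the other 9 members did not pass the test over all genes. COTL1 encodes coactosin-like protein, which binds actin filaments and the leukotriene-forming enzyme 5-lipoxygenase. It read 7.81 and 8.08 in MKL1/2 shRNA cells (replicates 1 and 2) and 9.05 and 9.17 in control cells. The groups did not overlap, and the gap between the nearest arrays was 0.964, larger than the spread within either group. COTL1 averaged 7.94 ± 0.196 in MKL1/2 shRNA cells and 9.11 ± 0.0894 in control cells (log2 value, SD, n = 2 each). The log2 difference was -1.17 (SE 0.126, 95% interval from -1.47 to -0.86), which is 0.446 of the control level. In bulk RNA, fewer cells that express a gene and less RNA per cell cannot be told apart. The difference of COTL1 was the 19th lowest difference of the 18417 genes. By p-value it ranked 29th, with a limma adjusted p of 0.0498, so it lay just inside the threshold of 0.05. A total of 32 genes passed. Next to it in that ranking, the death ligand gene TNFSF10, the LIM domain gene PDLIM3 and the cytokine signalling inhibitor gene SOCS2 also stood at an adjusted p of 0.0498, and the first gene outside was ENTPD5 at 0.0507. Over the alternative settings the difference of COTL1 ranged from -1.31 to -1.03 and its adjusted p from 0.00993 to 0.685.

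**Figure D1:**
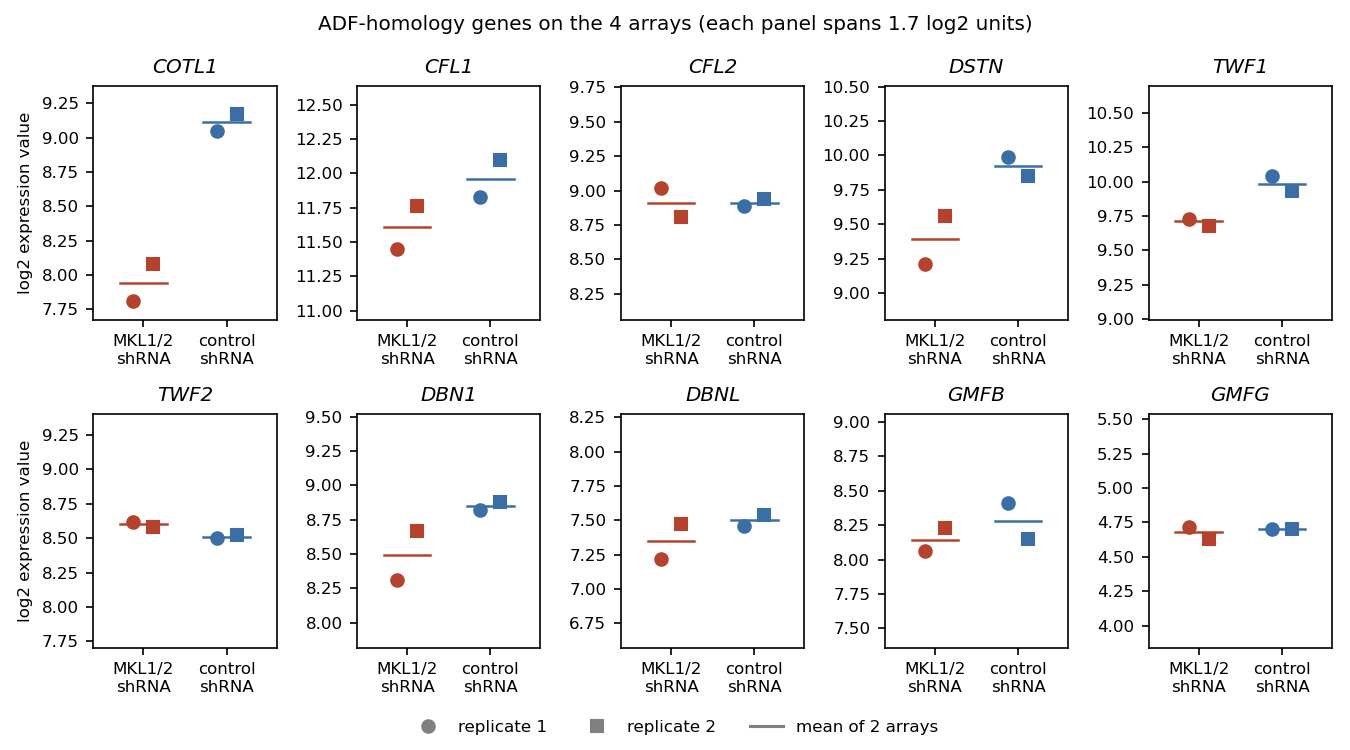
Log2 expression value (y axis) of each of the 10 ADF-homology genes on the 2 MKL1/2 shRNA arrays (red, left) and the 2 control shRNA arrays (blue, right), with circles for replicate 1, squares for replicate 2 and a line at each mean. The COTL1 groups are far apart (7.81 and 8.08 in MKL1/2 shRNA cells, 9.05 and 9.17 in control cells), whereas the CFL2, DBNL, GMFB and GMFG groups overlap.

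The promoters of COTL1, DSTN and CFL1 are shown because COTL1 is the member that fell, and DSTN and CFL1 are the widely expressed depolymerizing members to set beside it. They were chosen with their values in view. Each line gives the 250 bases before the RefSeq start in GRCh38.p14, 5′ to 3′ on the gene's own strand. Capitals mark GC boxes (GGGCGG) and CCAAT boxes (CCAAT) on either strand. The COTL1 window is chr16:84618079-84618328 (minus strand), the DSTN window is chr20:17569825-17570074 (plus strand) and the CFL1 window is chr11:65858181-65858430 (minus strand).
COTL1: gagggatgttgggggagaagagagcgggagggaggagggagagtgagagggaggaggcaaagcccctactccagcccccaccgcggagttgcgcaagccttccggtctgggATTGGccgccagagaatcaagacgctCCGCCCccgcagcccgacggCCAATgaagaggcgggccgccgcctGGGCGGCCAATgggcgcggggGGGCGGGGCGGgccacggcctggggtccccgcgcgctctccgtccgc
DSTN: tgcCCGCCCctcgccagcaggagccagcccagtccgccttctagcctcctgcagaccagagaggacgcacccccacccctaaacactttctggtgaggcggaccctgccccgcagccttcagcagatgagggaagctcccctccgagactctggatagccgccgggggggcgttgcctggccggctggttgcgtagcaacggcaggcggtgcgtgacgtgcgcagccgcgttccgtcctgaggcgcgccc
CFL1: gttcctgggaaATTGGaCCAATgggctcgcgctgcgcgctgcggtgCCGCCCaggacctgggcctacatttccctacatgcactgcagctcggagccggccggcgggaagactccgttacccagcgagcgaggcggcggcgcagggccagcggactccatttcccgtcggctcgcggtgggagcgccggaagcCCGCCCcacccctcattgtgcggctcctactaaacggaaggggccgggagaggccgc
The COTL1 window held 4 GC boxes and 3 CCAAT boxes, with 73.2% G and C. In it a CCAAT box directly follows a GC box, and the pair of GC boxes nearest the start share 1 base. The DSTN window held 1 GC box and 0 CCAAT boxes, and the CFL1 window held 2 of each. More GC boxes than in the COTL1 window were in those of TWF1 (5) and DBN1 (6 and 5), which were not called. RefSeq promoter windows were matched for 9 of the 10 genes, 11 windows in all, and GMFB had no entry in the table. GC boxes were in all 11 windows, against 42.6% of the 35116 windows in the table. The share of G and C in the table had a median of 58.0% and an upper quartile of 68.0%. In the member windows that share ran from 41.6% (CFL2) to 82.8% (DBN1). CCAAT boxes were in 2 of the 11, those of COTL1 and CFL1, against 32.0% of the table. The CArG box, the motif that SRF binds, was searched on both strands as the exact pattern CCWWWWWWGG, where W is A or T. It was in 0 of the 11 windows, against 1.16% of the table. With so rare a pattern, 0 in 11 windows does not set these promoters apart from the table. Inexact matches and sites further away were not searched. The TEAD motif GGAATG was in 0 of the 11, against 11.9% of the table, and TATAAA was in 1, that of GMFG, against 10.7%. These are letter matches within 250 bases, and factor binding was not measured.

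Among the cofilins and ADF, DSTN and CFL1 had lower values in MKL1/2 shRNA cells without passing the test, and CFL2 did not move. DSTN encodes destrin, also called ADF, which depolymerizes filaments at their ends. It read 9.21 and 9.56 in MKL1/2 shRNA cells and 9.99 and 9.85 in control cells. The groups did not overlap, with MKL1/2 shRNA replicate 1 at -0.71 and replicate 2 at -0.36 relative to the control mean. Its log2 difference was -0.53 (SE 0.142, 95% interval from -0.88 to -0.19, limma adjusted p = 0.2), which is 0.69 of the control level. CFL1, the cofilin of non-muscle cells, read 11.45 and 11.76 in MKL1/2 shRNA cells and 11.83 and 12.10 in control cells. The gap between the groups was 0.0663, less than the SD of either group (0.218 in MKL1/2 shRNA cells and 0.192 in control cells). The log2 difference of CFL1 was -0.36 (SE 0.149, 95% interval from -0.72 to 0.01, limma adjusted p = 0.356). CFL2, the cofilin known from muscle, read 9.02 and 8.81 in MKL1/2 shRNA cells and 8.89 and 8.94 in control cells. The control arrays lay between the MKL1/2 shRNA arrays, and the difference was 0.00 (SE 0.11, 95% interval from -0.27 to 0.27, limma adjusted p = 1). These 3 proteins are close relatives, and transcripts of processed pseudogenes of CFL1 and DSTN could also reach their probes, which was not tested.

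The twinfilins, which bind actin monomers and capping protein, did not pass the test, and their differences were small. TWF1 read 9.73 and 9.68 in MKL1/2 shRNA cells and 10.04 and 9.93 in control cells. Both arrays of the MKL1/2 shRNA group were below those of the control group, at -0.25 and -0.30 relative to the control mean. Its log2 difference was -0.28 (SE 0.0978, 95% interval from -0.51 to -0.04, limma adjusted p = 0.289). The other TWF1 probe lists the same transcripts and read 9.57 and 9.54 in MKL1/2 shRNA cells and 9.87 and 9.75 in control cells, a difference of -0.26. The annotation does not tell these probes apart, and whether either reads a processed copy of TWF1 was not tested. TWF2 read 8.62 and 8.58 in MKL1/2 shRNA cells and 8.50 and 8.52 in control cells. It was the 1 member whose MKL1/2 shRNA arrays both lay above the control arrays, with a log2 difference of 0.09 (SE 0.0926, 95% interval from -0.13 to 0.32, limma adjusted p = 0.715).

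The drebrin genes did not pass the test, and their values lay below the control mean mainly on 1 MKL1/2 shRNA array. DBN1 encodes drebrin, which binds along filaments and is best known from dendritic spines of neurons. It read 8.31 and 8.67 in MKL1/2 shRNA cells and 8.82 and 8.88 in control cells. The groups did not overlap, with replicate 1 of the MKL1/2 shRNA cells at -0.54 and replicate 2 at -0.18 relative to the control mean. Its log2 difference was -0.36 (SE 0.138, 95% interval from -0.69 to -0.02, limma adjusted p = 0.324). DBNL, the drebrin-like adaptor that links actin to endocytosis, read 7.22 and 7.47 in MKL1/2 shRNA cells and 7.46 and 7.54 in control cells. Replicate 2 of the MKL1/2 shRNA cells lay between the control arrays, and the difference was -0.15 (SE 0.12, 95% interval from -0.44 to 0.14, limma adjusted p = 0.629).

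The glia maturation factors, which promote removal of branches made by the Arp2/3 complex, had overlapping groups. GMFB, the widely expressed form, read 8.06 and 8.23 in MKL1/2 shRNA cells and 8.41 and 8.15 in control cells. The control arrays were further apart than the group means, and the difference was -0.14 (SE 0.127, 95% interval from -0.45 to 0.17, limma adjusted p = 0.687). GMFG, known from blood cells, was the dimmest member, at 4.72 and 4.63 in MKL1/2 shRNA cells and 4.70 on both control arrays, whose deposited values were identical. Its values lay between the lower quartile of all probes (at most 4.02 on any array) and the median. No background level is known, and how much of these values is GMFG signal was not tested. The difference was -0.02 (SE 0.0949, 95% interval from -0.25 to 0.21, limma adjusted p = 0.944).

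**Figure D2:**
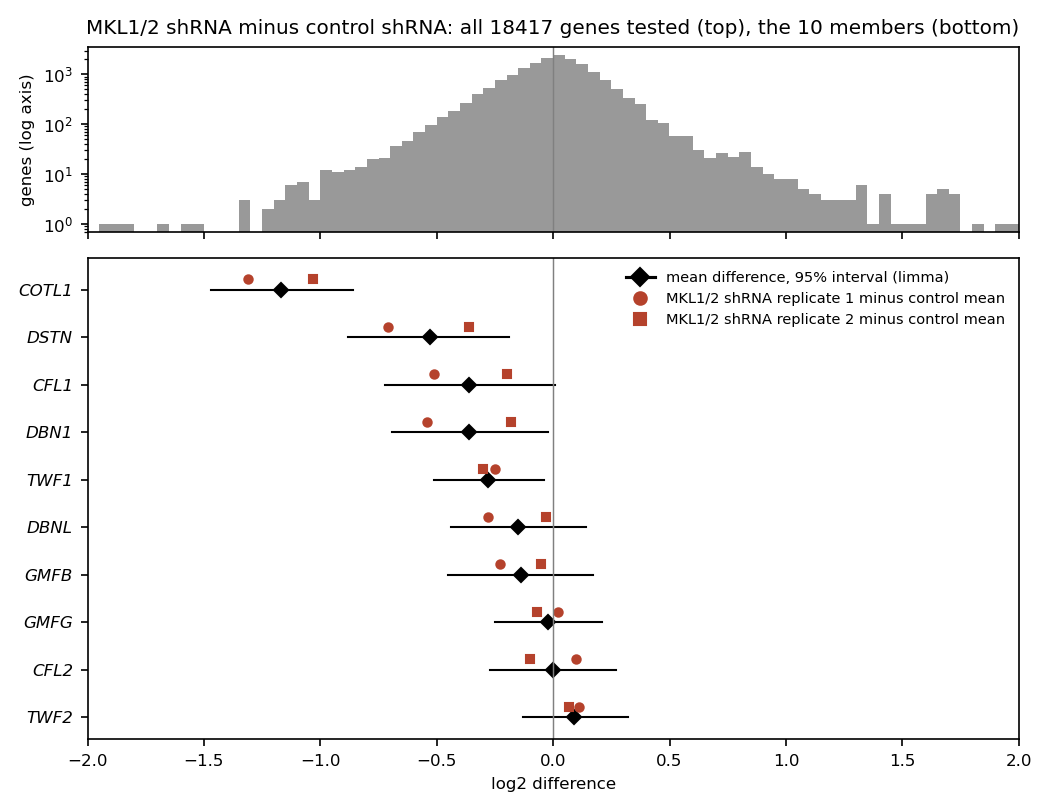
Log2 difference (x axis, MKL1/2 shRNA minus control shRNA) of all 18417 genes as counts on a log axis (top) and of the 10 members (bottom), with limma's 95% interval as a bar and each MKL1/2 shRNA array minus the control mean in red. Of the 18417 genes, 12 lie outside the axis. COTL1 at -1.17 stands apart from the next member, DSTN at -0.53, and the intervals of CFL1, DBNL, GMFB, GMFG, CFL2 and TWF2 include 0.

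As a family, 1 of 10 members fell in limma and 0 rose. Over all genes tested 0.0923% were called lower and 0.0814% higher. The fall of the 1 member called was known when the family was chosen. Of the other 9 members 0 passed, with 3 at an unadjusted p under 0.05 (DSTN, TWF1 and DBN1), all lower, where 8.04% of all genes were lower at that level. The groups did not overlap for 5 members that were lower (COTL1, CFL1, DSTN, TWF1 and DBN1) and 1 that was higher (TWF2). Leaving out COTL1, whose fall was known beforehand, 4 of the other 9 were lower and 1 was higher without overlap. Of all genes 23% were lower and 22.5% higher without overlap. Differences were below 0 for 9 members, counting CFL2 at 0.00 to the printed precision, and for 48% of all genes. Leaving out COTL1, they were below 0 for 8 of the other 9. The median difference was -0.21 over the 10 members and -0.15 without COTL1, against 0.01 over all genes. On the separate arrays the median of the 10 members was -0.27 for MKL1/2 shRNA replicate 1 and -0.14 for replicate 2, each against the control mean. The medians over all genes were 0.02 and -0.01 on these arrays.

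The count of members called depended on which arrays were used. With either control array left out 0 members passed in limma (2 at an unadjusted p under 0.05 in each case). COTL1 then had a difference of -1.23 without control replicate 1 (limma adjusted p = 0.685) and -1.10 without control replicate 2 (limma adjusted p = 0.648). In these same sets of 3 arrays 0 of the 18417 genes passed (866 and 1219 at an unadjusted p under 0.05). Without MKL1/2 shRNA replicate 1, COTL1 passed at -1.03 (limma adjusted p = 0.0208) and was the 1 member called, among 299 of the 18417 genes. Without MKL1/2 shRNA replicate 2, COTL1 passed at -1.31 (limma adjusted p = 0.00993), DSTN at -0.71 (limma adjusted p = 0.036) and DBN1 at -0.54 (limma adjusted p = 0.0493). In that set 781 of the 18417 genes passed, against 32 with all 4 arrays. Among members that were not called in any set, CFL1 ranged from -0.51 to -0.20, DBNL from -0.28 to -0.03 and GMFB from -0.27 to -0.01. Values were lower on MKL1/2 shRNA replicate 1 than on replicate 2 for 6 members (COTL1, CFL1, DSTN, DBN1, DBNL and GMFB) and higher on it for CFL2, TWF1, TWF2 and GMFG. In each of these sets 1 group has a single array, which is assumed to vary like the others, so the spread comes from the other group alone. The groups differed in spread, with an SD over genes of 0.265 between the MKL1/2 shRNA arrays and 0.154 between the control arrays. For DBN1 the SD was 0.254 in MKL1/2 shRNA cells and 0.0359 in control cells. The p-values and counts of these sets therefore depend on which group kept both arrays.

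**Figure D3:**
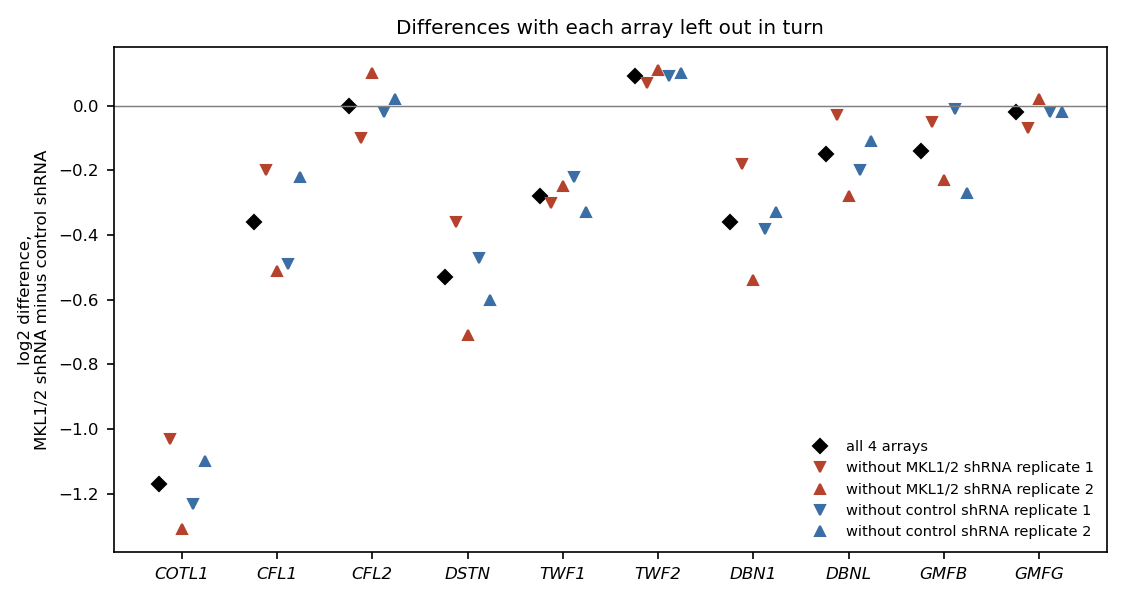
Log2 difference (y axis, MKL1/2 shRNA minus control shRNA) of each member with all 4 arrays (black diamonds) and with each array left out in turn (triangles, red for MKL1/2 shRNA arrays and blue for control arrays). COTL1 stays between -1.31 and -1.03, DSTN moves between -0.71 and -0.36, and CFL2 and GMFG cross 0.

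Among named genes outside the family, those whose pattern over the 4 arrays was closest to that of COTL1 were MYL9, XPR1, GJA1, MSRB3 and ANXA3. Genes with placeholder symbols (such as LOC, orf, FAM or KIAA), pseudogenes and non-coding RNAs were left out of this ranking. Likeness was the Euclidean distance over the 4 arrays between log2 values relative to each gene's control mean, so genes that fell by a like amount on both MKL1/2 shRNA arrays come first. MYL9, a regulatory light chain of myosin, had a distance of 0.12, with 8.80 and 9.15 in MKL1/2 shRNA cells and 10.16 and 10.27 in control cells. XPR1, a phosphate exporter, followed at 0.133 and GJA1, the gap junction protein connexin 43, at 0.14. MSRB3, a methionine sulfoxide reductase, was at 0.17 and ANXA3, an annexin, at 0.182. The log2 differences of these 5 genes ran from -1.24 for MYL9 to -1.08 for GJA1. XPR1 and GJA1 passed in limma (adjusted p = 0.0392 and 0.0382), and MYL9, MSRB3 and ANXA3 did not (adjusted p = 0.0508, 0.0944 and 0.0899).

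**Figure D4:**
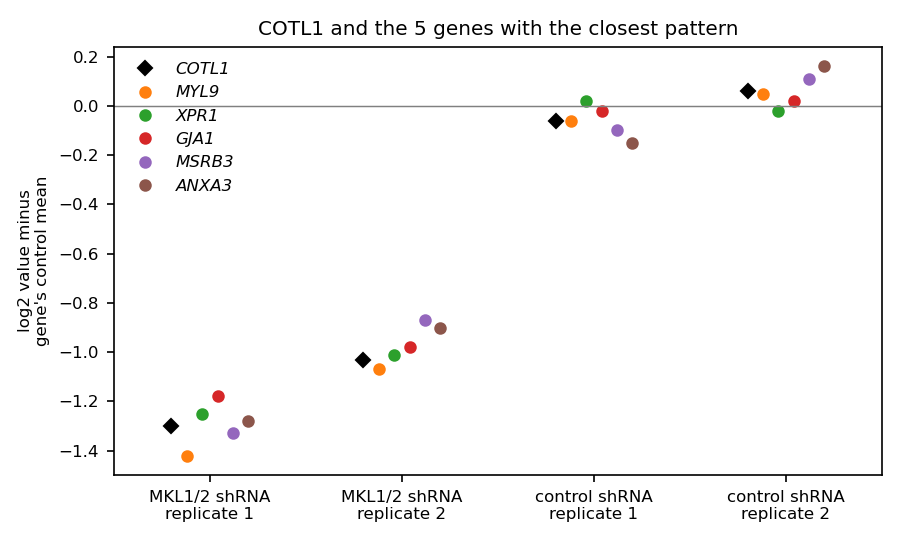
Log2 value minus each gene's control mean (y axis) for COTL1 (diamonds) and the 5 named genes outside the family with the closest pattern (circles) on the 2 MKL1/2 shRNA arrays and the 2 control shRNA arrays. COTL1 lies at -1.31 and -1.03 on the MKL1/2 shRNA arrays, and MYL9 at -1.42 and -1.06.

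Other genes of actin filament turnover were read from 7 lists that cover the regulators and partners of ADF-homology proteins. Of 44 genes listed 35 had a probe that lists that gene alone, and the other 9 were not analysed here. In limma 0 of the 35 passed, with 6 at an unadjusted p under 0.05, where 14.3% of all genes lay under that level. Of these 6 genes 5 were lower, where 8.04% of all genes were lower at that level. The median log2 difference of the 35 was -0.03, against 0.01 over all genes.

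Of the genes that act on cofilin through phosphorylation, the phosphatase gene SSH3 had the lowest p of all 35 and was higher. SSH3, a slingshot phosphatase that reactivates cofilin, read 7.73 and 7.65 in MKL1/2 shRNA cells and 6.94 and 7.16 in control cells. The groups did not overlap, and the difference was 0.64 (SE 0.114, limma adjusted p = 0.118). Its relative SSH2 lay at -0.30 (SE 0.1, limma adjusted p = 0.266) and SSH1 at -0.02. The LIM and testis-specific kinases, which inactivate cofilin, were between -0.07 for LIMK2 and 0.25 for TESK2, with adjusted p from 0.504 to 0.943 in limma. Of 6 kinases upstream of LIM kinases, 4 were lower without overlap of the groups, where 23% of all genes were. An unadjusted p under 0.05 was reached by 1 of the 6, against 14.3% of all genes. ROCK2, which phosphorylates LIM kinases, had the lowest p of these, with 7.67 and 7.94 in MKL1/2 shRNA cells and 8.28 and 8.19 in control cells. Its difference was -0.43 (SE 0.123, limma adjusted p = 0.219), and that of CDC42BPA, a Cdc42 effector kinase, was -0.22 (SE 0.11, limma adjusted p = 0.431).

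None of the measured partners of the ADF-homology proteins at filaments passed in limma, with adjusted p of at least 0.201. An unadjusted p under 0.05 was reached by 3 of the 8 Arp2/3 complex genes, all lower. Of all genes 14.3% reached it in either direction and 8.04% were lower. It was reached by 0 of the 6 cofilin cofactors, 0 of the 5 capping protein genes and 0 of the 3 monomer-binding genes. Of 8 measured Arp2/3 complex genes, the complex on which glia maturation factors act, 3 were lower and 2 higher without overlap of the groups, against 23% and 22.5% of all genes. ACTR3, its actin-related subunit ARP3, read 9.80 and 10.08 in MKL1/2 shRNA cells and 10.43 and 10.37 in control cells. ACTR3 had a difference of -0.46 (SE 0.122, limma adjusted p = 0.201) and ARPC5 one of -0.41 (SE 0.115, limma adjusted p = 0.216). With MKL1/2 shRNA replicate 2 left out, the difference was -0.60 for ACTR3 and -0.57 for ROCK2, and the spread in that fit came from the control arrays alone. Among the 6 measured cofilin cofactors, coronins and the cyclase-associated protein CAP2, differences ran from -0.21 for CORO1C to 0.15 for CORO2A, which had the 2 lowest p. The 5 genes of capping protein and its partners, the proteins twinfilin binds, lay between -0.14 for CAPZB and 0.03 for MTPN, with CAPZA1 at -0.08. The monomer-binding genes lay at -0.30 for PFN2, -0.06 for TMSB10 and 0.01 for PFN1.

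**Figure D5:**
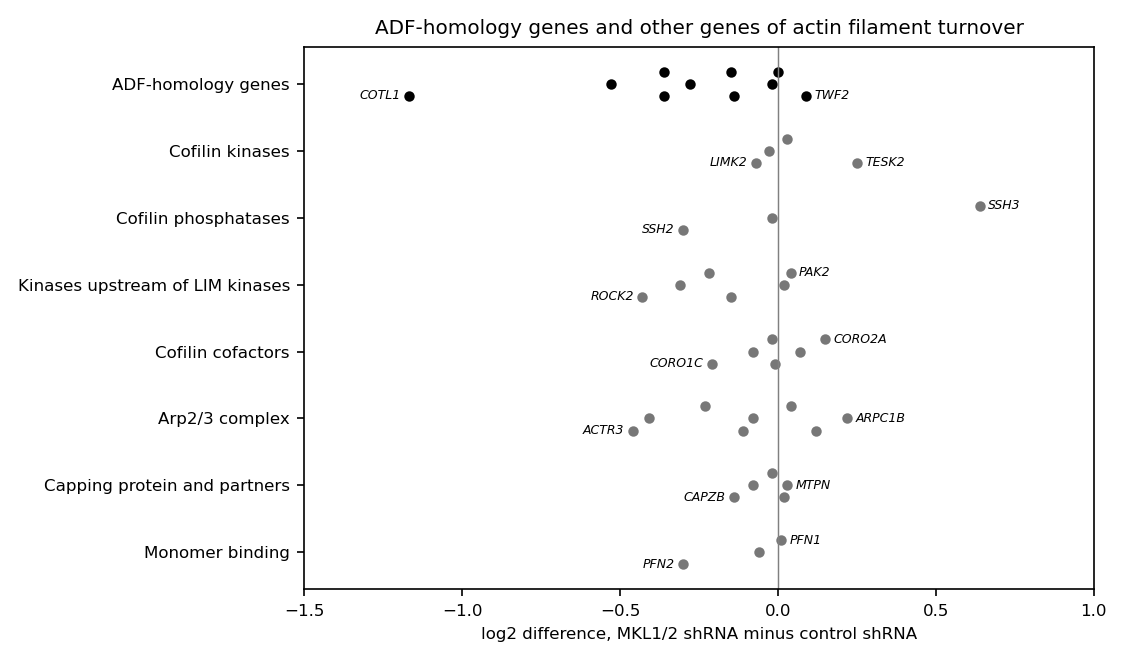
Log2 difference (x axis, MKL1/2 shRNA minus control shRNA) of the 10 ADF-homology genes (black) and of 35 other genes of actin filament turnover by list (grey), with 1 point per gene, a small vertical offset to keep points apart and the lowest and highest gene of each row named. COTL1 at -1.17 is lower than every gene shown, and the 35 other genes lie between -0.46 for ACTR3 and 0.64 for SSH3.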

How the data were processed

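Total RNA was labelled with biotin and hybridised to 1-colour whole-transcript arrays, 1 per sample. The deposited table holds log2 values, a scale inferred from their range of 1.03 to 13.65. Per the submitters' processing notes Partek was used. How the authors corrected background and normalized is not given in the sources at hand. No detection call stands behind a value. Probes were named from the platform annotation, with symbols updated through the RefSeq gene table of GRCh38.p14: of 33297 probes, 19460 list 1 gene, 1754 several and 12083 none. Of genes with several probes (769), the probe with the highest mean was used. Groups and replicate numbers came from the sample titles.

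The test was limma 3.58.1 (R 4.3.3), a two-sided moderated fit with lmFit and eBayes and a single group term. P-values were adjusted over 18417 genes by Benjamini-Hochberg, with a threshold of 0.05. The fit had 2 residual and 4.12 prior degrees of freedom, and the number of arrays limits the precision. The procedure was tested on simulated data. The MKL1 probe, which lists 2 genes, was tested beside the 18417 genes. All 10 members are named. In each list of other actin genes the 2 with the lowest p are named, and any others named were picked with values in view. The members and lists were chosen with earlier results of these data known. Promoters were read from RefSeq (GRCh38.p14). The alternatives tried are given in the closing section. Probe sequences and scanner files were not used here.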

Additional observations from a re-analysis of the deposited data

How the results depend on the processing

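With 1 member called in the reported analysis, the count was 0 with all 33297 probes tested (COTL1 at limma adjusted p = 0.208) and 0 without variance moderation (adjusted p = 0.474). At an unadjusted p under 0.05 these settings left 3 and 2 members. It stayed 1 without the dimmest 40% of genes, with quantile or median normalization, with probes averaged, with trended or robust moderation, at a threshold of 0.1 and with the replicate block. Leaving out each array in turn gave from 0 to 3 members. For the 35 other actin genes the count was 0 in all of these settings, and from 0 to 2 with an array left out. CFL2 turned sign under quantile normalization (0.04) and ranged from -0.10 to 0.10 with an array left out, and GMFG ranged from -0.07 to 0.02. The cause of these changes was not tested. Over all genes 32 were called, against 52 with quantile normalization, 51 with robust moderation, 144 at a threshold of 0.1, 0 with all probes (3486 at an unadjusted p under 0.05), 0 without moderation (1840 at that level), and from 0 to 781 with an array left out.

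The labels do not say that a replicate number marks a shared day or batch. Over genes, the within-group differences of same-numbered arrays had a correlation of -0.0669, and the numbers were not used as pairs. With the replicate block 1 member was called, COTL1 (limma adjusted p = 0.0169), and 93 genes in all.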
